A study of Homo sapiens with 12 samples.

Results

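The genes described here are 10 genes of cellular iron handling, namely TFRC, STEAP3, SLC11A2, FTH1, FTL, PCBP1, NCOA4, SLC40A1, ACO1 and IREB2, chosen by name from the 58735 rows of each count table. All 10 had a row and passed the filter on low counts in every comparison. RNA-seq read counts were deposited for 12 samples of a pair of human neuroblastoma (NB) cell lines, NB being a tumor of the developing sympathetic nervous system. KELLY, a line with MYCN amplification, received 1 µM Erastin and SK-N-AS, a line without it, received 2 µM, and each line had DMSO controls, with 24 h of treatment and 3 samples per group. Erastin blocks the cystine/glutamate antiporter and can set off ferroptosis, a cell death that depends on iron. Each line stands for 1 culture model, the dose differed between the lines so that line and dose cannot be told apart, and the samples of a group were wells seeded in triplicate, so that p-values measure the spread between wells.

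Iron enters most cells bound to transferrin, which is taken up by the transferrin receptor; in endosomes ferric iron is reduced and moved to the cytosol. There it is used, stored as a mineral core inside ferritin, or exported by ferroportin. The iron regulatory proteins bind hairpins called iron-responsive elements (IREs) when iron is scarce, which holds back translation of ferritin mRNA and protects the mRNA of the transferrin receptor from decay, so mRNA counts speak to only a part of this control. Free ferrous iron can react with peroxides and start the lipid damage of ferroptosis.

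The IREs are shown because they are what part of the members have in common. In the GENCODE 44 transcripts the 5′ and 3′ UTRs were searched, on the transcript strand, for a bulged C, 5 stem bases, the loop CAGTGN and 5 bases that pair with the stem (G with U included). The pattern was found in the 5′ UTR of FTH1, FTL and SLC40A1 and 4 times in the 3′ UTR of TFRC. Each window below has 29 bases, the loop letters are in capitals, and the TFRC sites are given in the order of the mRNA. Positions are on GRCh38.
FTH1, 5′ UTR, chr11:61967574-61967602, minus strand: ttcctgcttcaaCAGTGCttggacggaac
FTL, 5′ UTR, chr19:48965335-48965363, plus strand: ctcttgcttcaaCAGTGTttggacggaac
SLC40A1, 5′ UTR, chr2:189580661-189580689, minus strand: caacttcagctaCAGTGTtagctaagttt
TFRC, 3′ UTR, chr3:196050979-196051007, minus strand: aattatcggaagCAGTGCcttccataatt
TFRC, 3′ UTR, chr3:196050575-196050603, minus strand: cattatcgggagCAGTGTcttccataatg
TFRC, 3′ UTR, chr3:196050510-196050538, minus strand: ctgtatcggagaCAGTGAtctccatatgt
TFRC, 3′ UTR, chr3:196050463-196050491, minus strand: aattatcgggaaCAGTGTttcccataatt
The pattern was present in 38 of 19217 genes with a 5′ UTR (0.198%) and in 142 of 19583 genes with a 3′ UTR (0.725%). No match to these letters was found in the UTRs of the other 6 members. The search needed all 5 stem bases to pair and allowed no further bulge, so it would miss an IRE of another form. It therefore does not show that a member lacks an IRE, or that TFRC has no more than the 4 given.

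In the RefSeq promoter windows, 9 of the 10 members had a sequence. The letters TGACNNNGC, the core of the antioxidant response element, were present on either strand in NCOA4 and PCBP1 and in 13.3% of the 35116 windows. The letters TGATGNAA, the core of the element that ATF4 binds, were present in SLC11A2 and in 3.62% of all windows. These matches describe the letters of the windows only.

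Depth was even, with 24169796 to 29835670 counts per library. The 8 adrenergic neuroblast markers summed to 4192 to 10898 CPM (counts scaled to a library total of 1000000) in KELLY and 925 to 1038 CPM in SK-N-AS. By edgeR 8 of 8 were called lower in SK-N-AS DMSO samples, beside 30.9% of all genes tested. Each exceeded 3 counts in at least 1 sample of every group. The 6 mesenchymal markers summed to 109 to 164 CPM in KELLY and 2256 to 2646 CPM in SK-N-AS, with 6 of 6 called higher there, beside 30.3% of all genes. The labels call KELLY neuronal and SK-N-AS neuroblast, and the defining adrenergic markers were thus lower in the latter. Of the 8 leukocyte markers, PTPRC had 12835 to 16496 counts in the SK-N-AS samples and 0 in every KELLY sample, while CD68, CD163, LYZ and CD3E had at most 3 counts in every sample. CD14 and CSF1R exceeded 3 counts in some samples of each group, and NKG7 in some Erastin samples of each line. The 8 markers summed to 0.0812 to 0.507 CPM in KELLY. In SK-N-AS they summed to 454 to 621 CPM, with PTPRC alone at 454 to 620 CPM. The 8 erythroid markers summed to 5.15 to 20.1 CPM and the 7 hepatocyte markers to 0.246 to 6.32 CPM. In each library the level of a gene also moved with the GC content of its exons. The rank correlation of a gene's deviation with its GC content, across genes of a library, ran from -0.83 in KELLY DMSO replicate 1 to 0.87 in KELLY Erastin replicate 1, and from -0.75 to 0.77 among the SK-N-AS libraries.

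To see which of the iron genes dominate the mRNA pool, levels were compared per kilobase of the canonical transcript. FTL, the light chain of ferritin, had the highest level in all 4 groups, with 993 ± 196 CPM per kb in KELLY DMSO samples (SD, n = 3) and 1662 ± 146 in SK-N-AS DMSO samples. FTH1, the heavy chain that oxidizes ferrous iron, came next in every group, with 306 ± 60.9 CPM per kb in KELLY and 731 ± 13.8 in SK-N-AS DMSO samples. Ferritin mRNA thus stood apart from the other members, as no sample of FTL or FTH1 overlapped its lower neighbor in any group.

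TFRC, the transferrin receptor, ranked after FTH1 with 110.2 ± 24.2 CPM per kb in KELLY DMSO and 76.2 ± 7.74 in SK-N-AS DMSO samples. PCBP1, an RNA-binding protein that also delivers iron to ferritin, was next with 73.7 ± 26.7 and 76.1 ± 15.6. The samples of TFRC and PCBP1 overlapped in 3 groups and were apart in SK-N-AS Erastin samples. NCOA4, the receptor that carries ferritin to the lysosome for release of its iron, had 47.7 ± 4.92 CPM per kb in KELLY and 54.7 ± 6.76 in SK-N-AS DMSO samples, and its samples overlapped those of PCBP1 in both DMSO groups.

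IREB2 and ACO1 encode the iron regulatory proteins, and ACO1 is also the cytosolic aconitase. IREB2 had 27.9 ± 5.58 CPM per kb in KELLY DMSO and 23.3 ± 3.04 in SK-N-AS DMSO samples. SLC11A2, which moves ferrous iron out of endosomes, had 25.5 ± 4.87 and 13.5 ± 1.51, overlapping IREB2 in both KELLY groups but in neither SK-N-AS group. ACO1 was lower, with 5.32 ± 0.118 and 9.72 ± 0.365 CPM per kb.

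At the bottom of the order stood STEAP3, an endosomal ferrireductase, and SLC40A1, which encodes ferroportin, the iron exporter. In KELLY DMSO samples they were at 3.10 ± 0.529 and 3.14 ± 0.749 CPM per kb and overlapped. In SK-N-AS DMSO samples STEAP3 was at 9.57 ± 1.43 and SLC40A1 at 0.845 ± 0.214, without overlap. SLC40A1 mRNA was therefore the lowest of the 10 in SK-N-AS, in which FTL was the highest in every library.

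**Figure D1:**
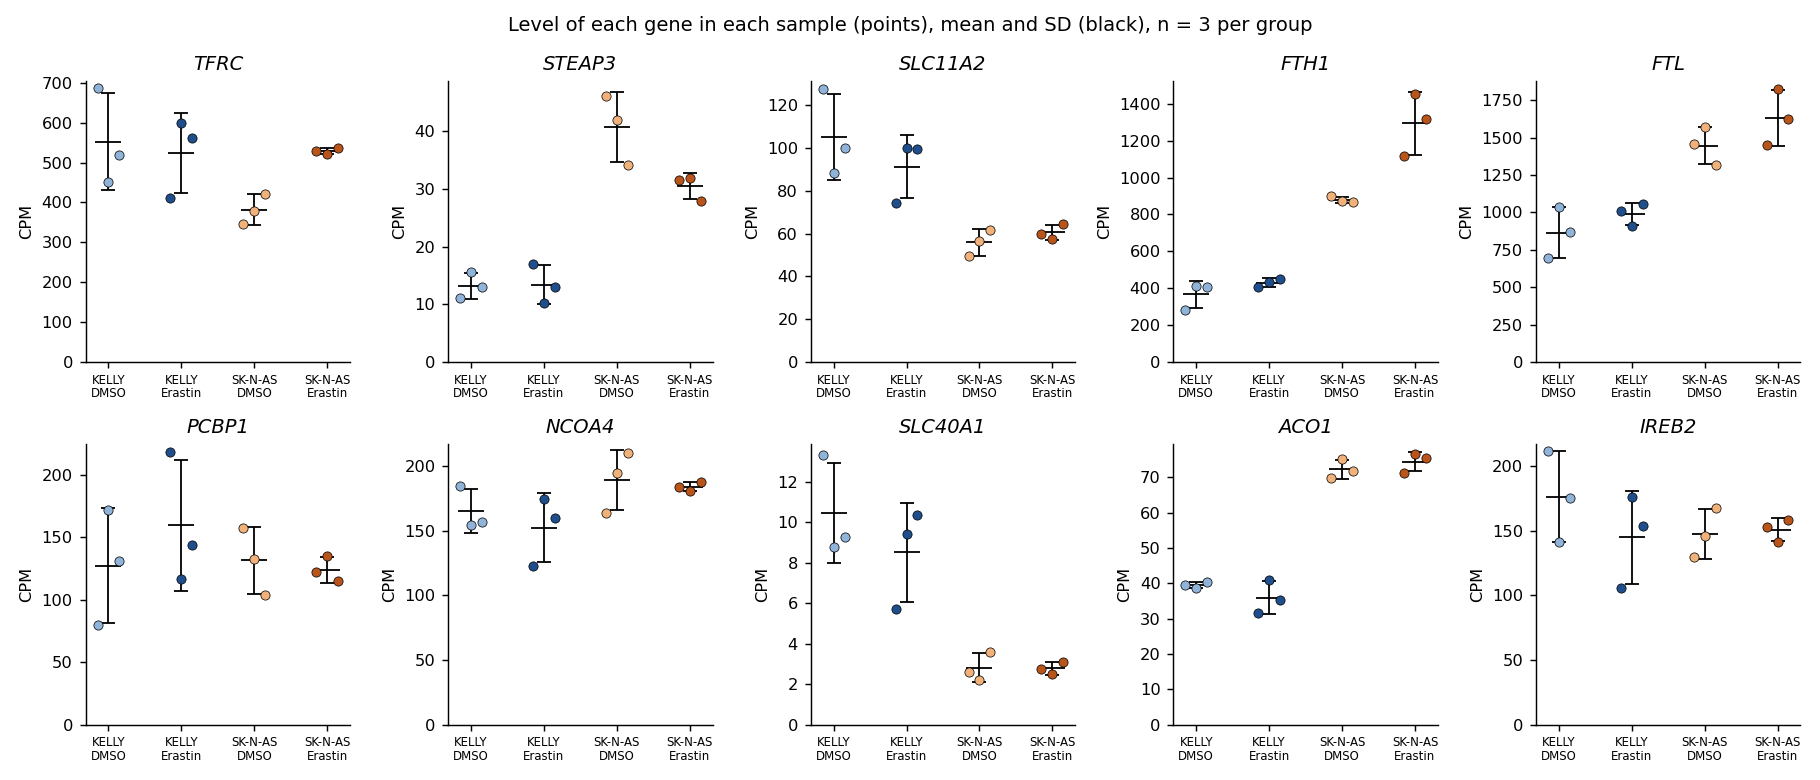
Level of each of the 10 genes in CPM (y axis from 0) in the 4 groups, with a point per sample and the mean and SD in black. In SK-N-AS, the Erastin points of TFRC and FTH1 all lie above the DMSO points, while in KELLY the Erastin and DMSO samples of all 10 genes overlap.

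The next comparison asks how the iron genes responded to Erastin in SK-N-AS cells. TFRC and FTH1 mRNA rose, by 1.40-fold and 1.48-fold. STEAP3 mRNA was lower in all 3 Erastin samples but did not pass the test, and the remaining 7 members had log2 fold changes between -0.08 and 0.18. In bulk RNA, fewer cells with a transcript and less of it per cell cannot be told apart. Values below are CPM for replicates 1, 2 and 3, and tests are edgeR quasi-likelihood tests with Benjamini-Hochberg adjustment over all 16095 genes tested.

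TFRC (chr3:196012511-196082153, minus strand) was at 345, 379 and 422 CPM with DMSO and at 529.8, 522 and 537 CPM with Erastin. All Erastin samples lay above all DMSO samples. The log2 fold change was 0.48 (SE 0.09; fold 1.40, 95% interval 1.23 to 1.59; edgeR adjusted p = 0.0216).

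FTH1 (chr11:61959718-61967634, minus strand) was at 898, 875 and 865 CPM with DMSO and at 1115, 1452 and 1318 CPM with Erastin. The groups did not overlap, and the Erastin samples spread more widely than the DMSO samples. The log2 fold change was 0.57 (SE 0.09; fold 1.48, 95% interval 1.29 to 1.70; edgeR adjusted p = 0.0108).

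These 2 of 10 members were called, beside 0.659% of all genes tested in SK-N-AS (106 of 16095), and both were higher, beside 0.46% of all genes called higher. Neither reached the threshold used in the study's methods, an unadjusted p of at most 0.05 with a fold change of at least 1.5, which 2.67% of all genes met. The median log2 fold change was 0.05 over the 10 members and -0.01 over all genes tested. The calls rest on few wells: without DMSO replicate 2 the edgeR adjusted p was 0.199 for TFRC and 0.0966 for FTH1, and without Erastin replicate 2 it was 0.0950 and 0.0635. For TFRC it was also 0.142 without Erastin replicate 1 and 0.140 without Erastin replicate 3. The log2 fold changes stayed between 0.41 and 0.56 for TFRC and between 0.49 and 0.67 for FTH1 over all 14 alternatives. With all 12 samples in 1 fit, which share an estimate of the spread, the edgeR adjusted p was 0.892 for TFRC and 0.344 for FTH1.

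STEAP3 (chr2:119223831-119265652, plus strand) was at 46.2, 42.0 and 34.2 CPM with DMSO and at 31.6, 31.9 and 28.0 CPM with Erastin. All Erastin samples lay below all DMSO samples, the nearest samples being at 34.2 and 31.9 CPM. The log2 fold change was -0.41 (SE 0.12; fold 0.753, 95% interval 0.629 to 0.902), with an unadjusted p of 0.00504 and an edgeR adjusted p of 0.228. With the GC trend of each library removed the log2 fold change was -0.38 (SE 0.06) with an edgeR adjusted p of 0.00194, and without DMSO replicate 3 it was -0.52 with an adjusted p of 0.00100. In total, 3 of 10 members had groups that did not overlap, beside 14.8% of all genes tested in SK-N-AS, and the same 3 had an unadjusted p of at most 0.05, beside 8.77%.

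FTL (chr19:48965309-48966879, plus strand) was at 1456, 1570.1 and 1316 CPM with DMSO and at 1449.7, 1822 and 1624 CPM with Erastin. The groups overlapped, since Erastin replicate 1 lay within the DMSO range. The log2 fold change was 0.18 (SE 0.09; 95% interval -0.02 to 0.39; edgeR adjusted p = 0.634).

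SLC11A2 (chr12:50979401-51028566, minus strand) was at 49.4 to 61.8 CPM with DMSO and 57.6 to 64.4 CPM with Erastin, a log2 fold change of 0.12 (95% interval -0.10 to 0.35). NCOA4 (chr10:46005088-46030623, minus strand) was at 164 to 210.0 and 180.5 to 188 CPM, with -0.03 (-0.24 to 0.18). PCBP1 (chr2:70087477-70089203, plus strand) was at 104 to 158 and 115 to 135 CPM, with -0.08 (-0.36 to 0.21). The groups of these 3 genes overlapped, and Erastin replicate 3 of SLC11A2, at 64.4 CPM, lay above the DMSO range.

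SLC40A1 (chr2:189560590-189583758, minus strand) was at 2.22 to 3.61 CPM with DMSO and 2.48 to 3.12 CPM with Erastin, from 56 to 96 and 73 to 80 reads per library, with a log2 fold change of -0.01 (95% interval -0.48 to 0.46). ACO1 (chr9:32384603-32454769, plus strand) was at 70.0 to 75.3 and 71.3 to 76.5 CPM, with 0.05 (-0.13 to 0.23). IREB2 (chr15:78437431-78501453, plus strand) was at 129.5 to 168 and 141 to 158 CPM, with 0.04 (-0.18 to 0.26). As folds, the intervals ran from 0.915 to 1.18 for ACO1 and from 0.881 to 1.20 for IREB2, and more widely, from 0.719 to 1.38, for the low SLC40A1.

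**Figure D2:**
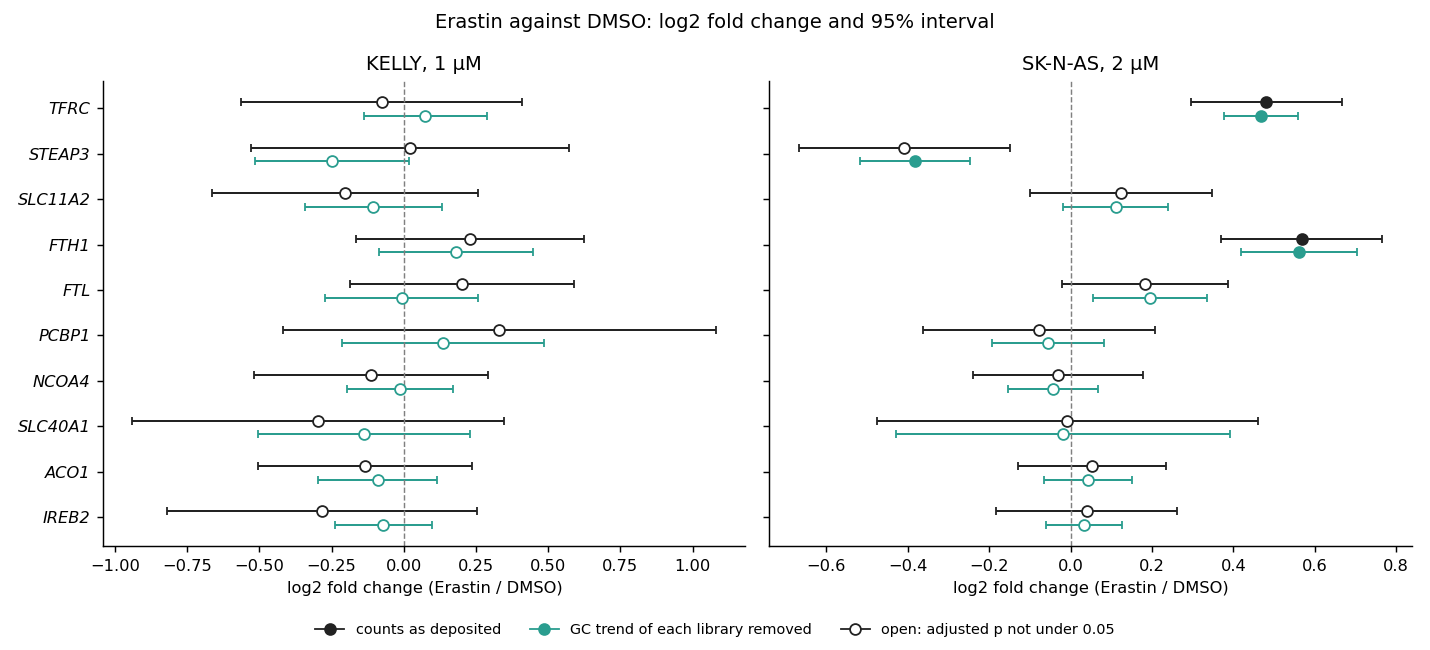
Log2 fold change of Erastin against DMSO (x axis) for the 10 genes in KELLY and SK-N-AS, with 95% intervals, from the counts as deposited (black) and with the GC trend of each library removed (green), filled where the adjusted p is under 0.05. In SK-N-AS the intervals of TFRC, FTH1 and STEAP3 exclude 0 in both fits, and in KELLY the intervals of all 10 genes include 0 in both.

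In KELLY cells none of the 10 members passed the test with Erastin, and the log2 fold changes ran from -0.30 to 0.33. By edgeR 0 of 10 members were called, beside 0.00615% of all genes tested in KELLY (1 of 16258). None of the 10 had an unadjusted p of at most 0.05, beside 2.64% of all genes, or met the threshold of the methods, beside 2.03%, and DESeq2 called 0 members. Adjusted p-values ran from 0.770 to 0.974, and none of the 10 genes had groups apart, beside 8.54% of all genes tested. The median log2 fold change was -0.10 over the members and 0.01 over all genes.

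TFRC was at 687, 452 and 518 CPM with DMSO and at 410.0, 599.5 and 560.2 CPM with Erastin in KELLY. Both the highest and the lowest sample were replicate 1 of their group. The log2 fold change was -0.08 (SE 0.21; 95% interval -0.56 to 0.41).

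FTH1 was at 284, 413 and 408 CPM with DMSO and at 406, 435 and 451 CPM with Erastin. DMSO replicate 1 lay below the other samples, and the rest spanned 406 to 451 CPM. The log2 fold change was 0.23 (SE 0.17; 95% interval -0.17 to 0.63), an interval that includes the value of 0.57 measured in SK-N-AS.

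FTL was at 692, 1034 and 868 CPM with DMSO and at 1011, 909 and 1054 CPM with Erastin, a log2 fold change of 0.20 (95% interval -0.19 to 0.59). PCBP1 was at 79.6, 171 and 131 CPM with DMSO and at 218, 116 and 144 CPM with Erastin, the widest spread of the members (0.33; -0.42 to 1.08). STEAP3 was at 11.1, 15.6 and 12.9 CPM with DMSO and at 16.9, 10.2 and 13 CPM with Erastin (0.02; -0.53 to 0.57). The groups of all 3 genes overlapped.

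Besides TFRC, the members that had lower mean levels with Erastin were SLC40A1 (-0.30; -0.94 to 0.35), IREB2 (-0.28; -0.82 to 0.26), SLC11A2 (-0.20; -0.66 to 0.26), ACO1 (-0.14; -0.51 to 0.23) and NCOA4 (-0.11; -0.52 to 0.29), given as log2 fold changes with 95% intervals. SLC40A1 was at 13.3, 8.77 and 9.30 CPM with DMSO and at 5.74, 9.41 and 10.4 CPM with Erastin. IREB2 was at 212, 141 and 175 CPM with DMSO and at 106, 176 and 153 CPM with Erastin. In both genes the lowest value was Erastin replicate 1 and the highest was DMSO replicate 1.

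In most members these extremes went with exon GC content. Of the 6 members with an exon GC content of 39.6% to 45.9%, 5 had their highest KELLY value in DMSO replicate 1 and 6 had their lowest in Erastin replicate 1. Of the 4 members with 49.5% to 56.7%, 3 had their lowest value in DMSO replicate 1 and 2 had their highest in Erastin replicate 1. When the GC trend of each library was fitted across genes and removed, the SD of log2 CPM over the 6 samples became smaller for 10 of 10 members in KELLY and for 10 of 10 in SK-N-AS. Some extremes remained, as FTH1 in KELLY DMSO replicate 1 was still lowest, at 315 CPM against 385 to 450 CPM in the other KELLY samples. The trend was fitted on genes of these same libraries, and none of these counts was made over all genes. They therefore do not set the members apart from genes at large.

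With this correction the KELLY log2 fold changes ran from -0.25 to 0.18 and 0 members were called. TFRC turned to 0.07 (SE 0.09), FTL to -0.0075 (SE 0.12) and STEAP3 to -0.25 (SE 0.12; unadjusted p = 0.0636; edgeR adjusted p = 0.693), while FTH1 was at 0.18 (SE 0.12). The corrected STEAP3 levels were 15.7, 14 and 13.7 CPM with DMSO and 12.5, 11.2 and 12.6 CPM with Erastin, so that the groups no longer overlapped. The share of all genes with groups apart after this correction was not computed. In SK-N-AS the corrected log2 fold changes of TFRC (0.47) and FTH1 (0.56) differed from the uncorrected values by less than their SE.

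**Figure D3:**
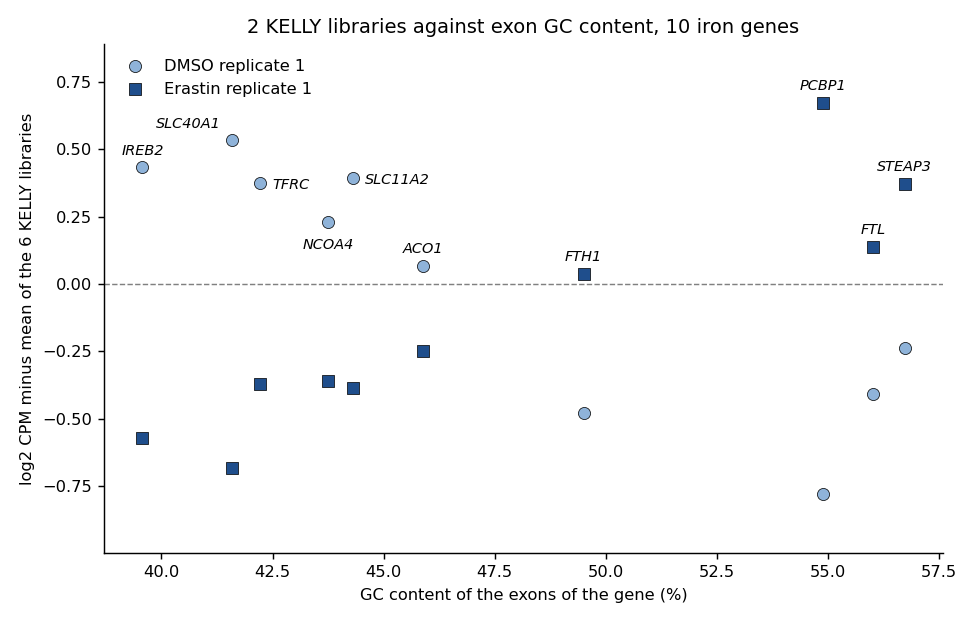
Deviation of log2 CPM from the mean of the 6 KELLY libraries (y axis) against exon GC content in percent (x axis) for the 10 genes, in DMSO replicate 1 (circles) and Erastin replicate 1 (squares). The 6 genes of lower GC content lie above 0 in the DMSO library and below 0 in the Erastin library, and the 4 genes of higher GC content lie the other way round.

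Whether the response differed between the lines was tested as an interaction over all 12 samples. By edgeR 0 of 10 members were called, beside 0.00548% of all genes tested (1 of 18239), and DESeq2 called 0 members as well. TFRC was the 1 member with an unadjusted p of at most 0.05, beside 4.25% of all genes. Its log2 fold change was higher in SK-N-AS than in KELLY by 0.55 (SE 0.23; 95% interval 0.04 to 1.06), with an unadjusted p of 0.0367 and an edgeR adjusted p of 0.811. For FTH1 the difference was 0.33 (95% interval -0.10 to 0.77; unadjusted p = 0.121). With the GC trend of each library removed, the TFRC difference was 0.39 (95% interval 0.18 to 0.60), with an edgeR unadjusted p of 0.00141 and adjusted p of 0.276. The FTH1 difference was then 0.38 (95% interval 0.07 to 0.69), with an edgeR unadjusted p of 0.0204 and adjusted p of 0.564. The share of all genes with such unadjusted p-values was not computed for the corrected fit. A different response of the lines was therefore not shown for any member, although 2 were called in SK-N-AS and 0 in KELLY.

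Ratios of transcripts within a library do not depend on its scaling, and 3 were tested. The log2 ratio of FTH1 to FTL counts, the balance of heavy to light ferritin chains, was -0.70, -0.84 and -0.61 in SK-N-AS DMSO samples and -0.38, -0.33 and -0.30 in Erastin samples. The groups did not overlap, with a difference of 0.38 and p = 0.1 in an exact permutation test, the smallest p that 3 against 3 samples allow. In KELLY the ratio was -1.29, -1.32 and -1.09 with DMSO and -1.32, -1.06 and -1.23 with Erastin, a difference of 0.03 (exact permutation p = 0.7), and 0.21 with the GC trend removed (exact permutation p = 0.3).

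Over both lines, with labels permuted within a line (400 arrangements, two-sided, smallest possible p 0.005), the difference in the FTH1 to FTL ratio was 0.21 (exact permutation p = 0.04, adjusted over the 3 ratios 0.06). The FTH1 to NCOA4 ratio, ferritin against its lysosomal receptor, was higher with Erastin by 0.48 over both lines (exact permutation p = 0.015, adjusted 0.045), by 0.58 in SK-N-AS without overlap and by 0.37 in KELLY with overlap. With the GC trend removed the difference over both lines was 0.40 and was still called (exact permutation p = 0.015, adjusted 0.0225). The KELLY difference was then 0.20 (exact permutation p = 0.3). Without KELLY DMSO replicate 1, whose uncorrected value of 0.62 was the lowest of the 12, the uncorrected difference over both lines was 0.35. Its adjusted exact permutation p was 0.105. In all, 9 of the 12 tests that left out a replicate lost the call.

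The TFRC to FTH1 ratio, which sets uptake against storage, was not called, with a difference of -0.20 over both lines (exact permutation p = 0.4, adjusted 0.4) and of -0.10 with the GC trend removed. In SK-N-AS, in which both transcripts rose, it was -1.21 ± 0.17 with DMSO and -1.28 ± 0.20 with Erastin (SD, n = 3).

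**Figure D4:**
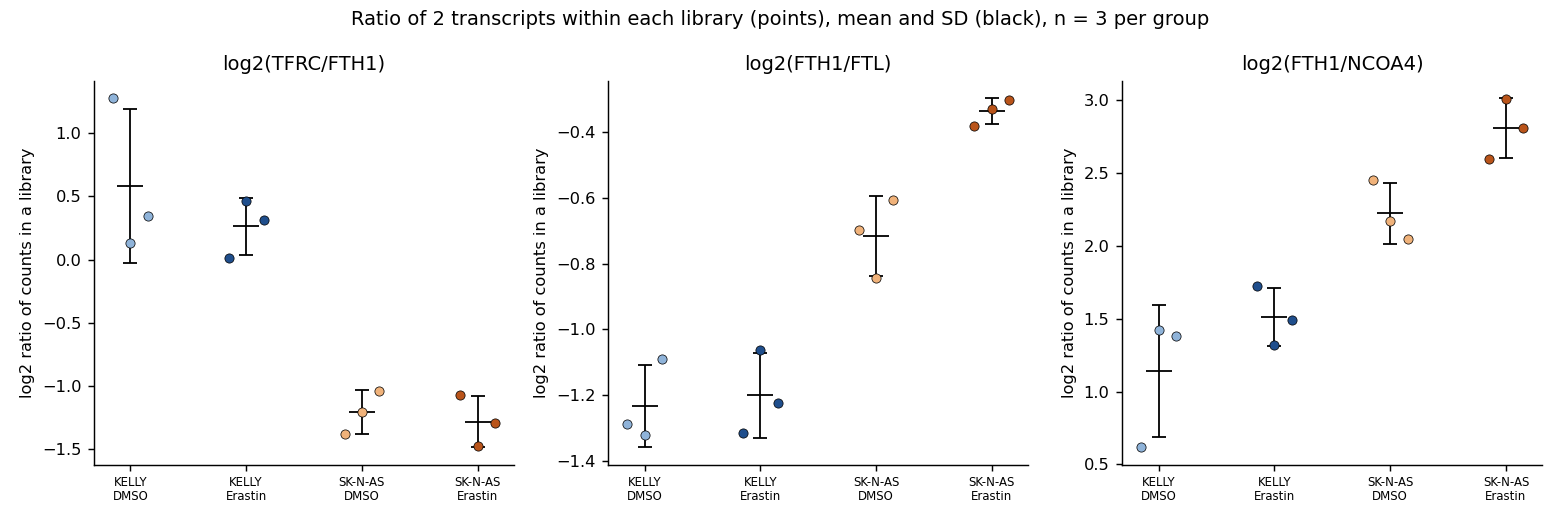
Log2 ratio of the counts of a pair of transcripts within each library (y axis) in the 4 groups, with a point per sample and the mean and SD in black. For FTH1 to FTL and FTH1 to NCOA4 the SK-N-AS Erastin samples lie above the SK-N-AS DMSO samples, and for TFRC to FTH1 every KELLY sample lies above every SK-N-AS sample.

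The control levels of the lines were compared next. In DMSO samples SK-N-AS had more ferritin, ACO1 and STEAP3 mRNA than KELLY and less TFRC, SLC11A2 and SLC40A1 mRNA, while NCOA4, IREB2 and PCBP1 did not pass the test. Line, passage and library handling cannot be told apart in this comparison. By edgeR 7 of 10 members were called, beside 61.3% of all genes tested between the lines (10473 of 17089), with 4 higher (30.3% of all genes) and 3 lower (30.9%), so that the count for the iron genes was near that of genes at large. The median log2 fold change was 0.11 over the members and -0.02 over all genes, and the same 7 members had groups without overlap, beside 66.3% of all genes.

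Among the storage genes, FTH1 was at 898, 875 and 865 CPM in SK-N-AS and at 284, 413 and 408 CPM in KELLY, 2.36-fold higher in SK-N-AS (95% interval 1.84 to 3.04; log2 fold change 1.24, SE 0.16; edgeR adjusted p = 1.64e-04). FTL was 1.66-fold higher (1.29 to 2.13; log2 0.73, SE 0.16; edgeR adjusted p = 0.00374). The lowest SK-N-AS sample lay above the highest KELLY sample in both genes. NCOA4 had a log2 fold change of 0.18 (95% interval -0.15 to 0.51) and PCBP1 of 0.03 (-0.58 to 0.65).

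Among the uptake genes, STEAP3 was at 34.2 to 46.2 CPM in SK-N-AS and 11.1 to 15.6 CPM in KELLY, 3.06-fold higher in SK-N-AS (95% interval 2.26 to 4.13; log2 1.61, SE 0.19; edgeR adjusted p = 1.01e-04). SLC11A2 was at 49.4 to 61.8 CPM in SK-N-AS and 88.2 to 127 CPM in KELLY, a fold of 0.526 (0.399 to 0.693; log2 -0.93, SE 0.17; edgeR adjusted p = 0.00163). TFRC was at 345 to 422 CPM in SK-N-AS and 452 to 687 CPM in KELLY, a fold of 0.685 (0.521 to 0.900; log2 -0.55, SE 0.17; edgeR adjusted p = 0.0226). The groups were apart in all 3 genes, but the TFRC call was lost without SK-N-AS DMSO replicate 1 (adjusted p = 0.0901 by edgeR) or replicate 2 (0.0757).

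SLC40A1, the exporter, was at 2.61, 2.22 and 3.61 CPM in SK-N-AS and at 13.3, 8.77 and 9.30 CPM in KELLY. Its fold of 0.267 (95% interval 0.176 to 0.403; log2 -1.91, SE 0.26; edgeR adjusted p = 2.48e-04) was the lowest of the members. Of the regulators, ACO1 was at 70.0 to 75.3 CPM in SK-N-AS and 38.8 to 40.5 CPM in KELLY, 1.81-fold higher in SK-N-AS (1.48 to 2.21; log2 0.85, SE 0.13; edgeR adjusted p = 3.97e-04). IREB2 had a log2 fold change of -0.27 (95% interval -0.67 to 0.13; edgeR adjusted p = 0.217) with overlapping groups, and -0.24 (SE 0.06; adjusted p = 0.00612) with the GC trend removed.

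The ratio of TFRC to FTH1 counts brings these differences together. In KELLY DMSO samples the log2 ratio was 1.28, 0.13 and 0.34, so TFRC had more reads than FTH1 in all 3, while in SK-N-AS DMSO samples it was -1.38, -1.20 and -1.04. The ratio is not scaled by transcript length, 5012 bases for TFRC and 1203 for FTH1, so its sign does not rank the transcripts. Per kilobase FTH1 was above TFRC in KELLY DMSO samples as well, at 306 against 110.2 CPM per kb. The ratio was 0.289-fold in SK-N-AS relative to KELLY, without overlap, and the exact permutation p was 0.1, the smallest that 3 against 3 allow.

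**Figure D5:**
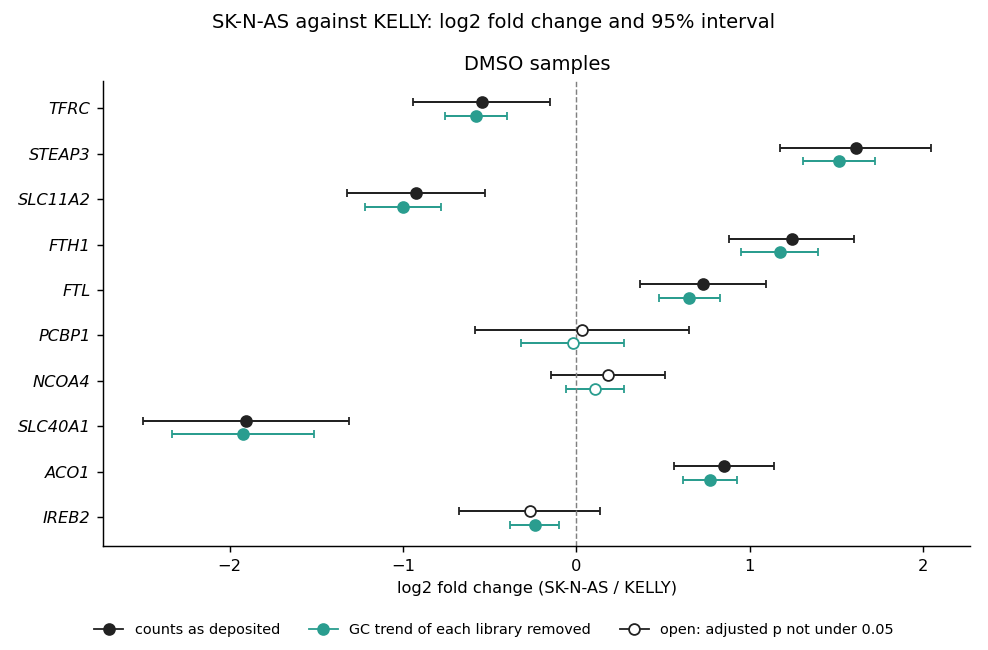
Log2 fold change of SK-N-AS against KELLY in DMSO samples (x axis) for the 10 genes, with 95% intervals, from the counts as deposited (black) and with the GC trend of each library removed (green), filled where the adjusted p is under 0.05. STEAP3, FTH1, ACO1 and FTL lie to the right of 0 and SLC40A1, SLC11A2 and TFRC to the left in both fits.

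The other genes of iron handling were taken from 5 lists. In SK-N-AS, 2 genes of the heme list (18 of 20 tested) were called with Erastin, beside 0.659% of all genes, and 0 in the lists of other uptake genes (9 of 14 tested), other storage and export genes (9 of 17), mitochondrial iron and iron-sulfur genes (25 of 26) and other IRE genes (4 of 5). The median log2 fold changes of these lists were -0.04, -0.14, -0.12, -0.04 and 0.16, beside -0.01 over all genes tested. At an unadjusted p of at most 0.05, which 8.77% of all genes reached, the uptake list had 1 gene, STEAP1 (log2 fold change -0.47), the IRE list 2, EPAS1 (0.51) and CDC42BPA (0.28), and the storage and mitochondrial lists 0, the 3 being named after their values were seen.

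HMOX1, heme oxygenase that frees iron from heme, was at 4.52, 4.13 and 2.93 CPM with DMSO and at 10.5, 17 and 15.8 CPM with Erastin in SK-N-AS. This was 3.76-fold higher with Erastin (95% interval 2.75 to 5.12; edgeR adjusted p = 4.57e-04). In KELLY it was at 6.33, 15.3 and 11.1 CPM with DMSO and at 35.5, 17.2 and 23.3 CPM with Erastin, a fold of 2.33 (1.28 to 4.25; unadjusted p = 0.0118; edgeR adjusted p = 0.770). HMOX1 was the only gene of the 5 lists to meet the threshold of the methods in KELLY, which 2.03% of all genes met. Its interaction was not called (edgeR adjusted p = 0.811).

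FECH, ferrochelatase that inserts the iron when heme is formed, was at 46.9, 50.1 and 47.8 CPM with DMSO and at 63.5, 73.0 and 67.8 CPM with Erastin in SK-N-AS. All Erastin samples lay above all DMSO samples, with a fold of 1.42 (95% interval 1.24 to 1.63; edgeR adjusted p = 0.0206). In KELLY its log2 fold change was -0.04 (95% interval -0.45 to 0.37). FBXL5, which targets the IREB2 protein for degradation, had log2 fold changes of -0.31 (-0.75 to 0.13) in KELLY and 0.11 (-0.11 to 0.34) in SK-N-AS.

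TF, which encodes transferrin itself, had 0 counts in all SK-N-AS samples and in KELLY DMSO samples, and 4, 1 and 1 counts in KELLY Erastin samples. In KELLY, 0 genes of the 5 lists were called with Erastin by edgeR, beside 0.00615% of all genes tested (1 of 16258). The lists had 7 (uptake), 9 (storage and export), 17 (heme), 25 (mitochondrial) and 4 (IRE) genes tested there. At an unadjusted p of at most 0.05, which 2.64% of all genes reached, there was 1 gene, HMOX1.

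Between the lines in DMSO samples, STEAP1, STEAP2, CP and FLVCR2 passed the filter on low counts only through SK-N-AS, which fixed their direction, and they are left out of the counts. Of the other uptake list, 7 genes were then left, with 2 higher and 2 lower in SK-N-AS (median log2 fold change -0.60). The storage and export list had 2 higher and 1 lower of 8 (median -0.11), the heme list 6 and 4 of 17 (0.12), the mitochondrial list 6 and 3 of 25 (0.18) and the IRE list 1 and 3 of 4 (-1.59). The 61.3% of all genes called covers every gene tested between the lines, including genes that passed the filter only through a single line. It is therefore not the share for a set filtered as these lists were.

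STEAP2, a metalloreductase related to STEAP3, had 0 counts in the 3 KELLY DMSO libraries and 52 counts over the 3 SK-N-AS DMSO libraries, at least 17-fold higher against a floor of 3 counts over the group. STEAP1 had 7 and 331 counts, a ratio of 46.2 (95% counting interval 22.2 to 116). FLVCR2, a relative of the heme exporter FLVCR1, had 3 and 94 counts, a ratio of 30.6 (10.2 to 151). The intervals cover counting error only and leave out the spread between wells. The filter fixed the direction of STEAP1, STEAP2 and FLVCR2, so their folds are given as values only.

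In the other direction, EPAS1, which encodes a hypoxia-inducible factor, was at 529.8, 733 and 716 CPM in KELLY and at 19.8, 18.3 and 17.6 CPM in SK-N-AS DMSO samples. PCBP4, of the same family as PCBP1, was at 59.9 to 127 CPM in KELLY and 15.4 to 24.4 CPM in SK-N-AS. Both were called by edgeR, with log2 fold changes of -5.16 and -2.27, and their groups did not overlap.

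Some member counts could share reads with other genes. The 25 processed copies named FTH1P held 0.743% to 3.07% of the reads of FTH1 and its copies together, with the highest share in KELLY DMSO replicate 1, and the 16 FTLP copies held 0.0317% to 0.102%. On the opposite strand, exons of BEST1 overlap those of FTH1 over 1267 bases, PCBP1-AS1 overlaps PCBP1 over 1264 bases STEAP3-AS1 overlaps STEAP3 over 500 bases and a lncRNA overlaps TFRC over 191 bases. The strand setting of the counting is not given in the sources used here. BEST1 had 0 to 27 counts and STEAP3-AS1 0 to 11, while PCBP1-AS1 was at 20.7 to 31.6 CPM in KELLY and 7.39 to 9.97 CPM in SK-N-AS. The level of the lncRNA at TFRC was not analysed here.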

How the data were processed

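The authors deposited whole-number read counts per gene for each line. Per the labels and the study's methods, reads were trimmed with Trimmomatic, aligned to GRCh38 (the aligner is not given in the sources used here) and counted with HTSeq over GENCODE release 29, without normalization. The members and the gene lists were chosen with earlier results of these data known.

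Genes passing filterByExpr were TMM-scaled and tested with the quasi-likelihood test of edgeR 4.0.16 (R 4.3.3) for Erastin against DMSO within each line (6 samples each), for SK-N-AS against KELLY in DMSO samples, and for the interaction over all 12 samples. A call is a Benjamini-Hochberg adjusted p under 0.05 over all genes tested, and the threshold of the methods (unadjusted p at most 0.05, fold at least 1.5) is given beside it. CPM use TMM factors over all 12 libraries, and GC-corrected CPM use TMM factors within each line. Ratios were tested by two-sided exact permutation. The scripts were tested on simulated data.

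Alternatives were DESeq2 1.42.0 (the tool of the methods), RLE scaling, no filter on low counts, protein-coding genes only, a replicate block, a GC correction (loess of log2 CPM deviations on exon GC content, span 0.5, genes with mean log2 CPM of at least 1, used as an offset), both together, all 12 samples in 1 fit, and leaving out each replicate. Depth was 24169796 to 29835670 counts per library. No pair of libraries (66 pairs) had more than 1.49% of genes with equal counts. Positions, transcript lengths and IRE windows come from GENCODE 44 on GRCh38, matched by symbol for 36512 of 57167 names and by an older symbol for 887, and the promoter windows from RefSeq on the build of that table. All members are named in every comparison. Of the lists, genes are named that passed either threshold with Erastin, the 3 called genes per direction with the largest fold between the lines, and TF, HMOX1 and FBXL5. A gene that this rule names is not reported here.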

Additional observations from a re-analysis of the deposited data

How the results depend on the processing

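In SK-N-AS the 2 members called with Erastin became 3 with the replicate block (STEAP3 added), 3 with the GC correction, 4 with both (FTL also added) and 0 with all 12 samples in 1 fit. Leaving out a replicate gave 0 to 3 members. The count was 0 in KELLY and in the interaction under every alternative run, and between the lines it was 6 with the replicate block, in which TFRC lost its call (adjusted p = 0.0605), and 8 with the GC correction, which added IREB2. Over all 17089 genes tested between the lines these settings called 9041 and 12603, against 10473, so the members' counts stayed near the background. Same-numbered samples did not all deviate together (correlations of -0.76, -0.79 and -0.12 in KELLY, -0.10, 0.20 and 0.34 in SK-N-AS, and -0.66, 0.23 and -0.28 between the lines in DMSO), and SK-N-AS DMSO replicate 1 correlated best with Erastin replicate 2 (0.34). The rule that every pair exceed 0.1 was thus not met, and the samples were treated as unpaired in the main fits. The correlations used levels without the GC correction, so they cannot decide whether same-numbered samples were handled together. Over all genes the SK-N-AS calls went from 106 to 223 (DESeq2), 265 (no filter), 308 (replicate block), 901 (GC correction), 1389 (both), 46 (all 12 samples) and, leaving out a replicate, 53 to 855; the KELLY calls from 1 to between 0 and 31, and those of the interaction from 1 to between 0 and 20. The FTH1 to FTL ratio over both lines was 0.28 with the GC correction and then passed (adjusted exact permutation p = 0.0225), and ran from 0.17 to 0.24 leaving out a replicate, passing without KELLY DMSO replicate 3. The FTH1 to NCOA4 ratio over both lines was 0.40 with the GC correction and kept its call (adjusted exact permutation p = 0.0225). Leaving out a replicate it ran from 0.35 to 0.55, with adjusted exact permutation p up to 0.105. The call was then lost except without KELLY DMSO replicate 2 or 3 or KELLY Erastin replicate 2. The TFRC to FTH1 ratio ran from -0.31 to -0.02.

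The direction changed only for values that were not called. With the GC correction, and with it and the replicate block, the log2 fold changes were 0.074 and 0.077 for TFRC, -0.0075 and -0.019 for FTL and -0.25 and -0.25 for STEAP3 in KELLY, -0.022 and -0.011 for PCBP1 between the lines, and 0.21 and 0.22 for FTL and -0.035 and -0.030 for NCOA4 in the interaction. With the replicate block SLC40A1 was at 0.012 in SK-N-AS. Leaving out a replicate, the ranges that crossed 0 were -0.20 to 0.12 (TFRC), -0.22 to 0.016 (NCOA4) and -0.19 to 0.18 (STEAP3) in KELLY; -0.15 to 0.21 (SLC40A1), -0.13 to 0.050 (NCOA4), -0.048 to 0.14 (IREB2) and -0.22 to 0.074 (PCBP1) in SK-N-AS; -0.22 to 0.31 (PCBP1) between the lines; and -0.17 to 0.11 (FTL) and -0.061 to 0.18 (NCOA4) in the interaction. The cause of these changes was not tested.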
